A study of Mus musculus with 11 samples.

Results

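Cpe, Lix1, Hmgn2, Lrrn3 and Capn2 were 5 of the 1767 genes in the deposited RNA-seq table of EmGFP-positive cells sorted from mouse striatum. They were taken from the table by gene symbol. They were selected on measured values: their counts were lower after NF-Y knockdown in these striatal cells, and the study lists each of them as lower in both of its arrays of neuro2a (N2a) neuroblastoma cells. Genes of lipid metabolism and astrocyte markers were left aside by role. The comparison of knockdown with control therefore chose the genes, and its values are given below as a description without a test. The arrays themselves were not analysed here.

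NF-Y is a heterotrimer of NF-YA, NF-YB and NF-YC that binds the CCAAT box in proximal promoters and generally activates transcription. NF-YA makes the sequence-specific contact with DNA, and NF-YB and NF-YC pair through histone-fold domains. The genes described here do not form a pathway. Cpe encodes carboxypeptidase E, which trims basic residues from prohormone intermediates in secretory granules. Hmgn2 encodes a small nucleosome-binding protein of the high mobility group N family. Capn2 encodes the large subunit of m-calpain, a calcium-activated cysteine protease. Lrrn3 encodes a neuronal transmembrane protein with leucine-rich repeats. Lix1, named for its expression in the limb bud, encodes a protein whose function is less well defined.

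All mice were wild-type males of the C57BL/6 strain, injected at 6 weeks of age into the striatum of both hemispheres with an adeno-associated virus and killed 3 weeks later. In both groups the virus carried EmGFP under the CAG promoter, which is active in many cell types and is not restricted to neurons. The control virus (NT2, n = 6) carried a non-targeting miR RNAi, and the knockdown virus (YAYC, n = 5) carried miR RNAi against NF-YA and NF-YC. Samples are named by the numbers in their labels, which are 3, 5, 7, 9, 21 and 23 for the controls and 4, 6, 8, 10 and 22 for the knockdown samples.

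The values are estimated read counts per gene, partly fractional, which the authors deposited without normalization and only for genes with a p-value under 0.05 in their own comparison. Over the listed genes, the controls had summed counts of 1581757 to 3141324 and the knockdown samples of 1954949 to 3010153, control 3 being the smallest. These sums are not the depth of the libraries. Normalized counts are estimated counts divided by a factor per sample from TMM normalization. TMM takes most genes as unchanged, whereas the genes here were all chosen for a difference. The values therefore depend on the scaling, and differences with the authors' scaling are given further below. Of the targeted genes, Nfyc was in the table, with a normalized count of 922 ± 173 (SD, n = 6) in controls and 805 ± 145 (SD, n = 5) in knockdown samples. Its log2 difference of -0.19 (standard error 0.15) did not pass edgeR's quasi-likelihood test (Benjamini-Hochberg adjusted p = 0.25). It was called lower with the authors' scaling, at -0.32 (standard error 0.14), and with the astrocyte marker score described below as a covariate, at -0.47 (standard error 0.17). Nfya and Nfyb were not among the genes analysed. By qRT-PCR of the sorted cells, the paper reports a reduction of NF-YC and no significant reduction of NF-YA.

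Because NF-Y binds CCAAT, the sequences before the starts of the genes were read for it. Promoters were taken from RefSeq (build GRCm38.p6), which matched 3 of the 5 genes, namely Lix1, Hmgn2 and Capn2. Each is printed from 250 bases before the annotated start to 10 bases past it, 5′ to 3′ on the strand of the gene, with every CCAAT on either strand in capitals. They are shown to set a promoter with this motif beside others without it or with it at the start itself. The Lix1 sequence is chr17:17402436-17402695 on the plus strand, the Hmgn2 sequence is chr4:133967982-133968241 on the minus strand, and the Capn2 sequence is chr1:182517601-182517860 on the minus strand.
Lix1: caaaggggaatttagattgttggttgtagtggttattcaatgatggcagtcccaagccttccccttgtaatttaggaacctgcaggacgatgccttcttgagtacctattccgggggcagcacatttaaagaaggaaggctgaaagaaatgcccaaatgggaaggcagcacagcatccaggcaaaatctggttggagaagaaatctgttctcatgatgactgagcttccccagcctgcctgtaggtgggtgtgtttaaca
Hmgn2: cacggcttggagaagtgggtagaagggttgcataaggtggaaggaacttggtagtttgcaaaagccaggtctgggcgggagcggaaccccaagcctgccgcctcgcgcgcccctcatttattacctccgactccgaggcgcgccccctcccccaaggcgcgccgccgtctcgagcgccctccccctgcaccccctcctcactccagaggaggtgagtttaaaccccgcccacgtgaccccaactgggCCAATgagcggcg
Capn2: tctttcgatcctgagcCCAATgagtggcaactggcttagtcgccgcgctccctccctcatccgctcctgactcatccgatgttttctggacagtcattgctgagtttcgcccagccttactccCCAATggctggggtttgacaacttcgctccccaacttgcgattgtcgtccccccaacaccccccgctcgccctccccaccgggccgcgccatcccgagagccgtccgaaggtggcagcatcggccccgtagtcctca

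Capn2 held CCAAT at 2 positions on its own strand, one from 234 to 230 bases before the start and one from 127 to 123 bases before it. The Hmgn2 match began 3 bases before the start and ended 2 bases past it, so that it was not counted in the 250 bases before the start. Lix1 held none in this window on either strand. Among all 32851 RefSeq promoters, CCAAT on either strand was found in 33.8% within the same 250 bases, and 10.1% held it at least 2 times. Among the 1776 promoters of the 1352 genes of the table that could be matched, the share was 36.1%. The longer forms CCAATCA and CCAATGA, which contain CCAAT, were found in 10.6% of all promoters, and Capn2 held CCAATGA at its more distant match. These are matches of letters and not binding sites, and the start of a gene differs between annotations.

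The 5 genes differed widely in their level. Levels were compared as normalized counts per kilobase of the longest GENCODE M21 transcript with a curated RefSeq match. In the controls the order was Cpe, with 16836 ± 6746 per kilobase, then Hmgn2 with 6614 ± 1977, Capn2 with 575 ± 93.4, Lix1 with 325 ± 125 and Lrrn3 with 102.0 ± 26.1 (SD, n = 6). In the knockdown samples the order was the same, at 8654 ± 3444, 4491 ± 446, 408 ± 113, 165.0 ± 56.8 and 70.3 ± 10.3 per kilobase (SD, n = 5). Among the controls the ranges of the neighbours Cpe and Hmgn2 overlapped, as did those of Capn2 and Lix1. Among the knockdown samples the ranges of Lix1 and Lrrn3 overlapped. The widest gap between neighbours, that between Hmgn2 and Capn2, was 11.5-fold in the controls, or 3.52 on the log2 scale, and 3.46 on that scale in the knockdown samples. Per kilobase of coding length, Hmgn2, whose coding sequence is 270 bases of a transcript of 1265, stood above Cpe in both groups.

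In the fit of all 1767 genes, each of the 5 genes was called lower in the knockdown samples at an unadjusted p under 0.05 and a fold change above 1.2. The contrast had chosen them, so that this count carries no further weight, and 26.1% of the listed genes were called lower by the same rule. Every gene of the table was chosen by this contrast, so the edgeR p-values given for other genes are no independent tests. In normalized counts, the control and knockdown ranges of all 5 genes overlapped, whereas 2.43% of the listed genes had every knockdown sample below every control.

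Cpe lies on chromosome 8 from 67071349 to 67171837 on the minus strand, in the table's coordinates (build mm9 in the submitters' processing notes). Its normalized counts in controls 3, 5, 7, 9, 21 and 23 were 17695, 42337, 36517, 50884, 47490 and 18923. In knockdown samples 4, 6, 8, 10 and 22 they were 10620, 12169, 18475, 21880 and 28458. Controls 5, 7, 9 and 21 were above every knockdown sample, whereas controls 3 and 23 lay among them. The controls had a mean of 35641 ± 14282 (SD, n = 6) and the knockdown samples one of 18320 ± 7290 (SD, n = 5), which was 48.6% lower, a log2 difference of -0.96 (standard error 0.33).

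Lix1 lies on chromosome 17 from 17539650 to 17596351 on the plus strand. Its normalized counts in the same controls were 484, 1244, 1275, 978, 1470 and 635, and in the same knockdown samples 227, 486, 550.0, 628 and 680.3. As with Cpe, controls 3 and 23 were low, and the other 4 controls exceeded every knockdown sample. Knockdown sample 4 was the lowest of all. The mean was 1014 ± 389 (SD, n = 6) in controls and 514 ± 177 (SD, n = 5) in knockdown samples, a log2 difference of -0.98 (standard error 0.32).

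Hmgn2 lies on chromosome 4 from 133520654 to 133523906 on the minus strand. Its normalized counts were 6402, 11877, 10416, 9226, 5804 and 6473 in the controls and 5922, 4673, 5975, 5947 and 5890.3 in the knockdown samples. Controls 5, 7 and 9 were high, whereas controls 3, 21 and 23 were close to the knockdown samples, 4 of which lay within a narrow band and 1, sample 6, below it. The mean was 8366 ± 2501 (SD, n = 6) against 5682 ± 564 (SD, n = 5), a log2 difference of -0.56 (standard error 0.19). Control 21 was the only control within the knockdown range. With the authors' own scaling factors in place of TMM, the groups did not overlap, as was the case for 6.11% of the listed genes. Hmgn2 has processed pseudogenes, and its estimated counts were not whole numbers in any of the 11 samples, so that reads shared with other loci may have been divided and its counts are uncertain to that extent. The counts of Lix1 were likewise whole in none of the samples, and those of Capn2 in 3 of them.

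Lrrn3 lies on chromosome 12 from 42178255 to 42212338 on the minus strand, and its estimated counts were whole in all 11 samples. Its normalized counts were 211, 508, 375, 440, 398 and 434 in the controls and 312, 215, 285, 247 and 299 in the knockdown samples. Of the controls, 5 exceeded every knockdown sample and control 3 lay below every one of them. The mean was 394 ± 101 (SD, n = 6) against 272 ± 39.8 (SD, n = 5), a log2 difference of -0.54 (standard error 0.20). It was the least abundant of the 5 genes, with an estimated count of 136 in control 3.

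Capn2 lies on chromosome 1 from 184397390 to 184447614 on the minus strand. Its normalized counts were 1491, 1901, 1869, 1880 and 2369 in controls 3, 5, 7, 9 and 21 and 1623 in control 23. In the knockdown samples they were 916, 1519, 1045, 1821 and 1278. Knockdown samples 6 and 10 reached into the range of the controls, and the other 3 lay below it. The mean was 1856 ± 301 (SD, n = 6) against 1316 ± 364 (SD, n = 5), a log2 difference of -0.50 (standard error 0.18).

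**Figure D1:**
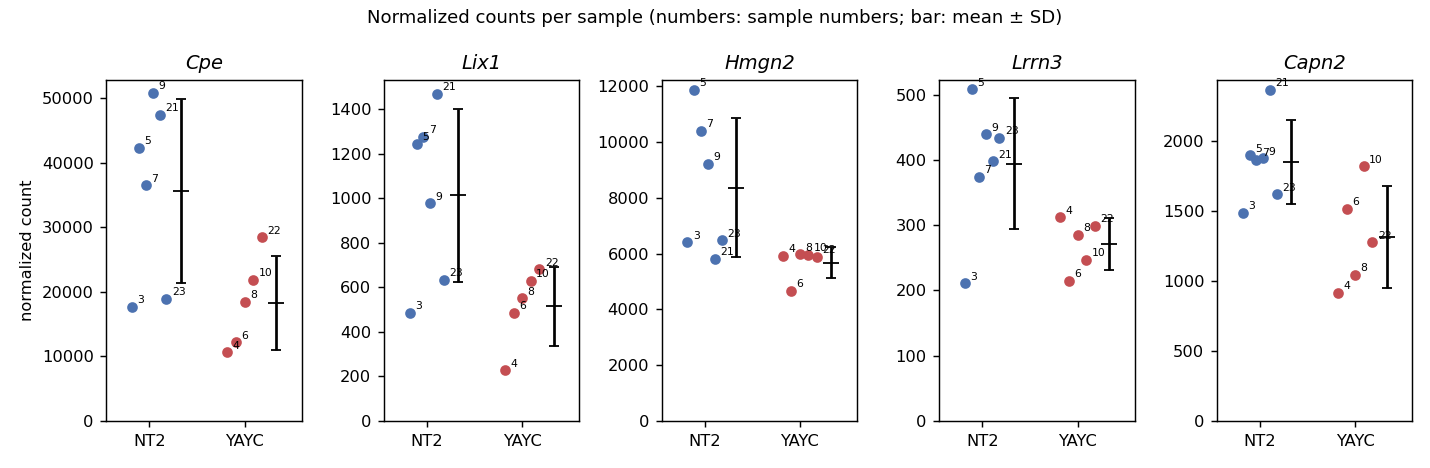
Normalized count (vertical axis, starting at 0, its scale differing between panels) of each of the 5 genes in the 6 control samples (NT2, blue) and the 5 knockdown samples (YAYC, red), each point labelled with its sample number and the bar giving mean ± SD. Control 3 was the lowest control for every gene except Hmgn2, and the 2 groups overlapped for each gene.

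Control 3 was often the lowest control, though by Dixon's criterion it was no outlier for any of the 5 genes, and control 23 was close to it for Cpe and Hmgn2. It was the lowest control for Cpe, Lix1, Lrrn3 and Capn2 and the second lowest for Hmgn2, and its sum of counts over the listed genes was the smallest of all samples. Whether this bears on its values was not tested. Without it, the log2 differences were -1.10 for Cpe, -1.12 for Lix1, -0.62 for Hmgn2, -0.67 for Lrrn3 and -0.55 for Capn2. Across the removal of each sample in turn, the differences stayed below 0, from -1.17 to -0.82 for Cpe, -1.12 to -0.79 for Lix1, -0.64 to -0.43 for Hmgn2, -0.67 to -0.45 for Lrrn3 and -0.64 to -0.39 for Capn2.

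The sample numbers fall into a series from 3 to 10, with 4 samples of each group, and a series from 21 to 23, with 2 controls and 1 knockdown sample. The labels do not say what the numbers stand for. Within the first series, the mean log2 value differed by -1.18 for Cpe, -1.07 for Lix1, -0.72 for Hmgn2, -0.47 for Lrrn3 and -0.48 for Capn2. Within the second series the differences were -0.08, -0.51, -0.06, -0.48 and -0.62 in the same order, with too few samples to judge the spread. With the series as a covariate in the fit, the difference of Cpe was -0.96 and that of Hmgn2 -0.57. The difference between the series was not tested.

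The genes also differed in how much they varied among samples of the same group. The p-value by which genes entered the table depends on this spread as well, so the values are a description. The within-group standard deviation of the log2 values was 0.64 for Cpe and 0.63 for Lix1, larger than in 88.4% and 88.0% of the 1455 listed genes with a mean normalized count of at least 50. It was 0.34 for Hmgn2, 0.36 for Lrrn3 and 0.32 for Capn2, nearer to the median of 0.28 over those genes. Hmgn2 varied more among the controls, with a coefficient of variation of 29.9%, than among the knockdown samples, with 9.94%. For Capn2 it was 16.2% among controls and 27.7% among knockdown samples.

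Those markers of astrocytes that were in the table had lower means in the knockdown samples. Astrocytes are the glial cells that clear glutamate and are coupled by gap junctions. Of 20 astrocyte markers listed, 9 were in the table, none of them at 0 in any sample, and 8 were called lower, where 26.1% of all listed genes were. The table holds only genes with a p-value under 0.05 in the authors' comparison, so nothing is said of the other markers. Their summed normalized count lay between 38719 and 105485 in the controls and between 26386 and 48367 in the knockdown samples. Of 14 vascular markers, 9 were in the table and 7 were called lower, with sums between 7559 and 12189 in the controls and between 4919 and 8485 in the knockdown samples. The lists of oligodendrocyte and microglia markers each had 1 gene in the table, Ugt8a and P2ry12. Ugt8a was called lower, with a log2 difference of -0.50 (standard error 0.20). P2ry12 had a log2 difference of -0.36 (standard error 0.18) and was not called. None of the 13 neuronal markers and none of the 15 striatal projection neuron markers was among the genes analysed, so the neuronal identity of the cells could not be checked against them. In stained brain sections the paper found most EmGFP cells of both groups positive for the neuronal marker NeuN and a few negative. It also reports glial genes among those that differed, names partial infection of glia or contamination during sorting as possible reasons, and removed non-neuronal genes. In RNA from bulk sorted cells, fewer cells of a type and less RNA per cell cannot be told apart.

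The log2 normalized counts of the 9 markers, each centred on its own mean, were averaged within a sample to give an astrocyte marker score. It was 0.42 ± 0.69 (SD, n = 6) in controls and -0.51 ± 0.46 (SD, n = 5) in knockdown samples. The 9 markers entered the table by their difference between these groups, so the difference of the score is no test. The lowest controls were control 3 at -0.58 and control 23 at -0.20, the same samples in which Cpe and Lix1 were low. Among the 6 controls alone, Lix1 followed the score closely, with a Pearson's r of 0.98 (two-sided exact permutation test, p = 0.0028, adjusted p = 0.021 over 15 relations) and a Spearman's rho of 0.94 (exact permutation p = 0.017, adjusted p = 0.125). Capn2 had an r of 0.94 (exact permutation p = 0.0028, adjusted p = 0.021) and the same rho and p-values for rho. Without controls 3 and 23, which lay farthest from the median score, r was 0.82 for Lix1 and 0.85 for Capn2 over the remaining 4.

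Cpe had an r of 0.91 with the score among the controls (exact permutation p = 0.024, adjusted p = 0.071) and a rho of 0.66 (exact permutation p = 0.175, adjusted p = 0.495). Without controls 3 and 23 its r was 0.15, so that the relation rested on these samples. Lrrn3 had an r of 0.67 (exact permutation p = 0.128, adjusted p = 0.253) and a rho of 0.37 (exact permutation p = 0.497, adjusted p = 0.746), and its r without those samples was 0.10. Hmgn2 had an r of 0.36 (exact permutation p = 0.439, adjusted p = 0.470) and a rho of 0.14 (exact permutation p = 0.803, adjusted p = 0.919), and its r was -0.60 without them. Control 21 had the highest score and the lowest Hmgn2 of the controls, and without control 21 alone the r of Hmgn2 with the score was 0.97. The weak relation of Hmgn2 to the score among the controls thus rested on that sample.

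**Figure D2:**
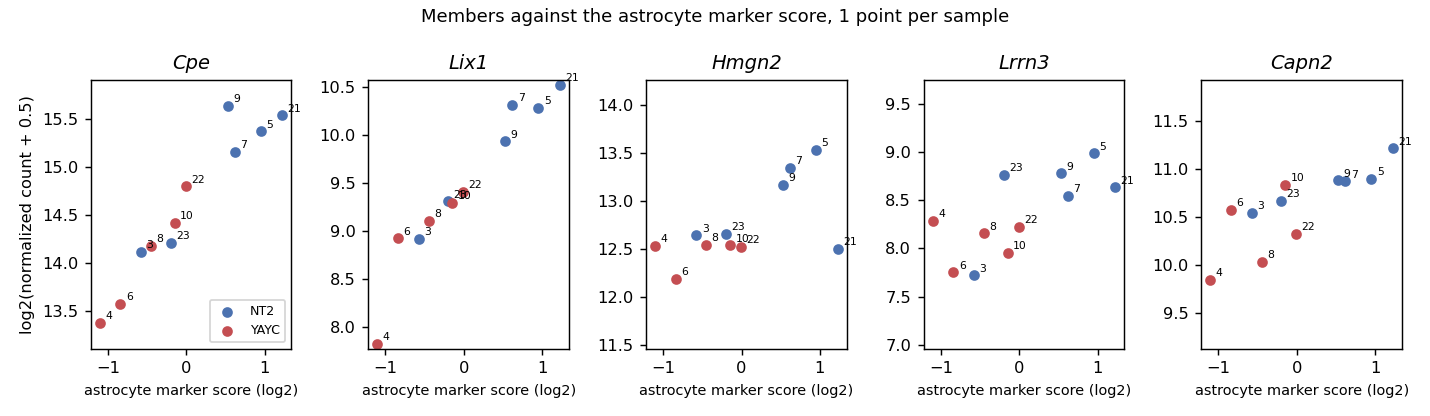
Log2 of the normalized count plus 0.5 (vertical axis, spanning the same number of log2 units in each panel) against the astrocyte marker score in log2 units (horizontal axis), with 1 point per sample in blue for controls (NT2) and red for knockdown samples (YAYC), labelled with sample numbers. Points of both groups lie along a common rising band for Cpe and Lix1, whereas for Hmgn2 control 21, with the highest score of 1.23, lies at the level of the knockdown samples.

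The other 10 relations tested among the controls were those between pairs of the genes. Lix1 and Capn2 varied together, with an r of 0.91 (two-sided exact permutation test, p = 0.0056, adjusted p = 0.028) and a rho of 0.83 (exact permutation p = 0.058, adjusted p = 0.219), and r was 0.71 without controls 3 and 23. Cpe and Lix1 had an r of 0.89 (exact permutation p = 0.040, adjusted p = 0.101) and a rho of 0.60 (exact permutation p = 0.242, adjusted p = 0.495), which became an r of -0.36 without those samples. Cpe and Capn2 had an r of 0.84 (exact permutation p = 0.021, adjusted p = 0.071) and a rho of 0.83 (exact permutation p = 0.058, adjusted p = 0.219), with an r of 0.37 without them. The other 7 pairs had adjusted p-values of 0.253 or more for r. The relations of Hmgn2 also depended on control 21, without which r was 0.88 with Cpe, 0.96 with Lix1 and 0.93 with Capn2. With TMM none of the 15 rank correlations passed an adjusted p of 0.05, whereas with the authors' scaling that of Lix1 and Capn2 did (rho = 1.0, exact permutation p = 0.0028, adjusted p = 0.042). The genes of a sample share its library and scaling factor.

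Over all 11 samples, with the mean of each group subtracted, the genes again differed, but not in the same order. Cpe stood with Lix1, and Capn2 was farther from them than among the controls alone. The r with the astrocyte score was 0.93 for Cpe and 0.93 for Lix1, 0.65 for Capn2, 0.54 for Lrrn3 and 0.36 for Hmgn2. With a vascular score built in the same way, r lay between -0.31 and 0.24 for the 5 genes. Cpe and Lix1 had r above 0.75 with each astrocyte marker except Glul, which encodes glutamine synthetase and whose own log2 difference was -0.16. These correlations are a description of 11 samples that share library and scaling.

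**Figure D3:**
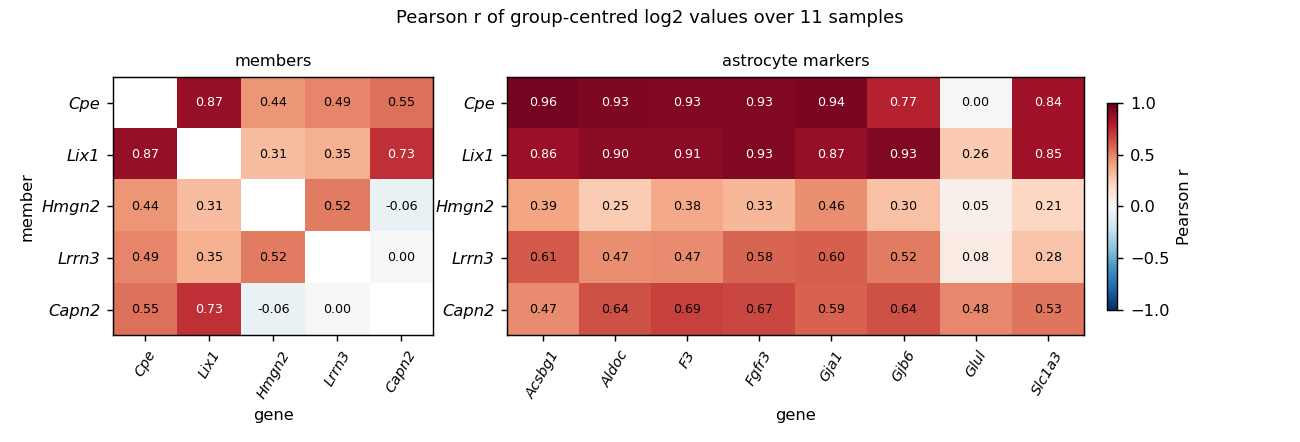
Pearson's r, over the 11 samples, of log2 values from which the mean of each group was subtracted, between the 5 genes (left) and between each of them and 8 of the astrocyte markers in the table (right), with the colour scale from -1 to 1. Cpe and Lix1 form rows of high r with all markers shown but Glul, whereas the r of Hmgn2 with the markers did not exceed 0.46.

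The genes of the table whose pattern was nearest to each of the 5 genes were found by the same group-centred r over the 11 samples, among 1454 other genes whose median r with each of the 5 was between -0.07 and -0.01. Nearest to Cpe were Gstm3 (r = 0.98) and Gstm1 (r = 0.98), which encode glutathione S-transferases of the mu class, and Cbs (r = 0.96), which encodes cystathionine beta-synthase. Nearest to Lix1 were Chrdl1 (r = 0.97), which encodes a secreted BMP antagonist, and the astrocyte marker Gjb6 (r = 0.93), which encodes a gap junction protein. For Cpe, 25 genes had an r above 0.9, against 10 for Lix1, 2 for Hmgn2, 2 for Capn2 and 0 for Lrrn3. The neighbours of Cpe and Lix1 named here had lower means in the knockdown samples, Gjb6 with a log2 difference of -1.53 (standard error 0.39) and Gstm3 with -0.77 (standard error 0.31).

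Nearest to Hmgn2 were Dhx40 (r = 0.93), Spc25 (r = 0.91) and Emid1 (r = 0.87). Dhx40, which encodes a DEAH-box helicase, was higher in the knockdown samples, with a log2 difference of 0.37 (standard error 0.10, edgeR adjusted p = 0.015), so that it followed Hmgn2 within the groups and differed in the opposite direction between them. Spc25, which encodes a kinetochore protein, had a log2 difference of -0.51 (standard error 0.21). Nearest to Lrrn3 were Insig1 (r = 0.87), which encodes a sterol-sensing regulator of the endoplasmic reticulum, Slc7a11 (r = 0.87), which encodes the cystine-glutamate antiporter subunit, and Cst3 (r = 0.86), which encodes cystatin C. Nearest to Capn2 were Pmm1 (r = 0.94), which encodes a phosphomannomutase, 1110020G09Rik (r = 0.92) and Fam123a (r = 0.89). No gene was named as nearest to more than 1 of the 5.

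The difference between the groups was then estimated with the astrocyte score as a covariate. The log2 difference was -0.02 (standard error 0.19) for Cpe and -0.04 (standard error 0.18) for Lix1, against -0.96 and -0.98 without the covariate. For Capn2 it was -0.17 (standard error 0.19), for Lrrn3 -0.26 (standard error 0.25) and for Hmgn2 -0.32 (standard error 0.23), each closer to 0 than without it. In that fit 214 of the 1767 listed genes were called lower, against 461 without the covariate, and none of the 5 genes was among the 214. The standard errors of Hmgn2, Lrrn3 and Capn2 were larger than without the covariate, and those of Cpe and Lix1 smaller. The score itself differed by -0.93 between the groups, and marker level and knockdown are therefore partly confounded in the fit and cannot be fully told apart. The markers of the score entered the table by their difference between the groups, and what this adds to the fit was not tested. With the authors' scaling in place of TMM, the differences were -1.10 for Cpe, -1.13 for Lix1, -0.69 for Hmgn2, -0.68 for Lrrn3 and -0.64 for Capn2. That scaling lowered the log2 difference of all listed genes by a median of 0.13, from -0.13 to -0.27. With it, 832 genes were called lower and 605 higher (57.9% lower), against 461 and 719 with TMM (39.1% lower).

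**Figure D4:**
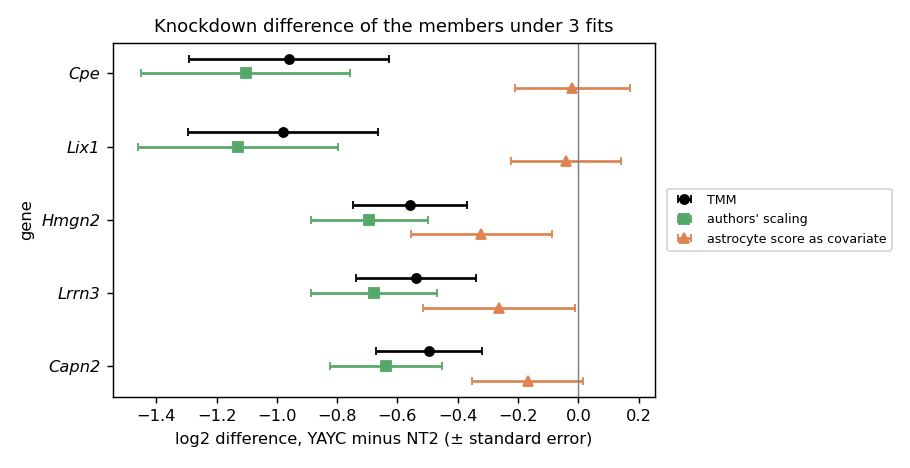
Log2 difference between knockdown (YAYC) and control (NT2) samples on the horizontal axis, with its standard error as the bar, for each of the 5 genes on the vertical axis under TMM normalization (black circles), the authors' scaling (green squares) and TMM with the astrocyte marker score as a covariate (orange triangles). With the score as a covariate, Cpe and Lix1 lie at -0.02 and -0.04.

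The genes belong to a larger set. Of the genes in the table, 30 are named in the study's lists as lower in both N2a arrays, and the 5 genes are among these. Neither their role nor their difference alone sets them apart, since other genes outside lipid metabolism and the astrocyte markers, such as Rab5b and Wbp1, were also called lower. Between the highest and the lowest of the 5 in log2 difference stood Scd1 and Sc5d, enzymes of fatty acid desaturation and sterol synthesis, and Ptplad1, and above them the astrocyte marker Aldoc at -1.14 (standard error 0.37). Just outside Capn2 came Slc19a1, which encodes the reduced folate carrier, at -0.44 (standard error 0.13). Of the other 25 genes, 22 had lower means in the knockdown samples, 11 were called lower, and Nsd1, Zfp599 and Kcnab1 were called higher. Of all 1767 listed genes, 1017 had a log2 difference below 0 and 26.1% were called lower. The lists were made by the study from other samples, but the table holds only genes that differed in these.

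The covariate fit was also read over this larger set, without a test of the difference between its parts. The median log2 difference of the 5 was -0.56 without the astrocyte score, the value of Hmgn2, and -0.17 with it, the value of Capn2. The median of the other 25 was -0.29 without the score and -0.30 with it, and that of all listed genes was -0.13 and -0.08. Among the other 25, those called lower with the covariate were Sc5d, Ptplad1, Echs1, Wbp1, Rab5b, Reep3, Nfyc and Ctnnd1. Of all 1767 listed genes, 214 were called lower in that fit. For Sc5d the difference was -0.53 (standard error 0.14) with the covariate and -0.60 (standard error 0.11) without it. For Aldoc, which is itself part of the score, it was -0.04 (standard error 0.13). The group-centred r with the score had a median of 0.02 over the other 25, from -0.66 for Ctnnd1 to 0.98 for Aldoc, and only Aldoc among them exceeded Cpe and Lix1.

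**Figure D5:**
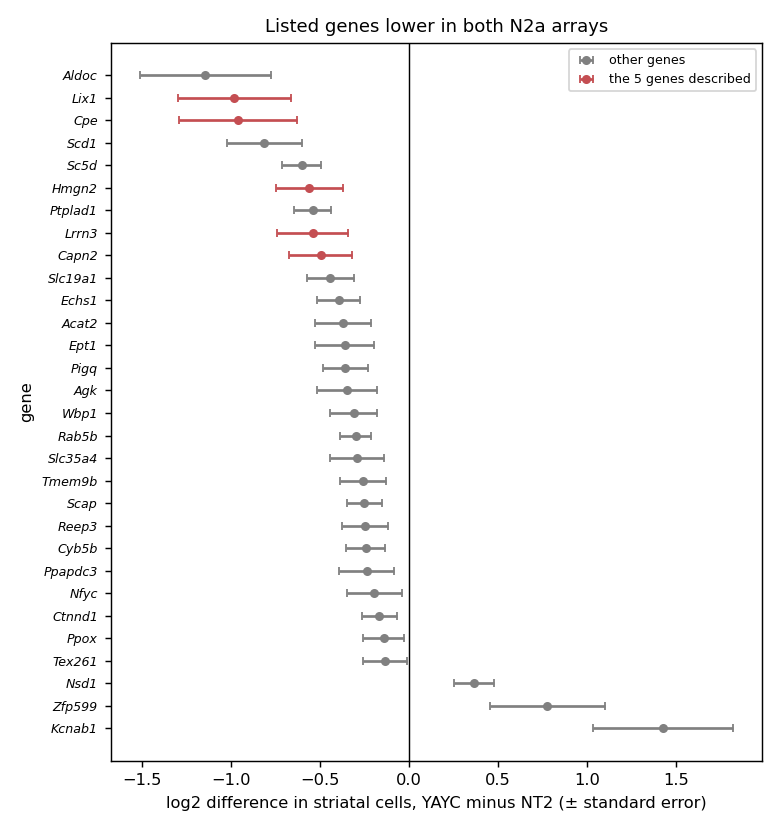
Log2 difference between knockdown (YAYC) and control (NT2) striatal samples, with its standard error as the bar (horizontal axis), for the 30 genes of the table that the study lists as lower in both N2a arrays (vertical axis, in order of the difference), the 5 genes described in red and the others in grey. The 5 genes lie between -0.98 and -0.50, and Nsd1, Zfp599 and Kcnab1 lie above 0.

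Genes related to the 5 by family or function were looked up in lists. Those found in the table were there by their difference between the groups, so their edgeR p-values are a description. Of 32 genes of prohormone processing and secretory granules, the setting in which carboxypeptidase E acts, Vgf and Bdnf were in the table. Vgf, which encodes a granule protein that is cleaved into neuropeptides, rose by a log2 difference of 2.02 (standard error 0.52, edgeR adjusted p = 0.015), its normalized count being 31.9 ± 11.3 in the 6 controls and 131 ± 108 in the 5 knockdown samples. Bdnf had a log2 difference of 1.49 (standard error 0.78, edgeR adjusted p = 0.10) at 6.02 ± 7.88 counts in the controls and was not called. Neither therefore had a lower mean, as Cpe did.

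Of 40 genes for neuronal membrane proteins with leucine-rich repeats, the class of Lrrn3, 6 were in the table, 5 were called higher and 0 lower, with a median log2 difference of 0.68 against -0.13 over all listed genes, of which 40.7% were called higher, and 38.9% were higher at an adjusted p under 0.05. Lrrtm2, which encodes a postsynaptic organizer that binds neurexins, rose from 634 ± 130 to 993 ± 180 normalized counts, a log2 difference of 0.65 (standard error 0.16, edgeR adjusted p = 0.014). The log2 differences of the other 4 called genes were 1.13 for Lingo3 (standard error 0.34, edgeR adjusted p = 0.021), 0.85 for Slitrk3 (standard error 0.29), 0.72 for Lrrc4 (standard error 0.23) and 0.62 for Flrt3 (standard error 0.16). Lrfn1 had a log2 difference of -0.62 (standard error 0.30, edgeR adjusted p = 0.087) and was not called.

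Of 18 genes of the calpain system, Capn6 and Capns2 were in the table and both were called higher, as were 40.7% of all listed genes. Capn6, a calpain that lacks the catalytic cysteine, rose from 82.5 ± 78.8 to 228 ± 94.8 normalized counts, a log2 difference of 1.46 (standard error 0.52, edgeR adjusted p = 0.033). Capns2, a small regulatory subunit, rose from 25.2 ± 10.5 to 55.1 ± 10.7, a log2 difference of 1.13 (standard error 0.32, edgeR adjusted p = 0.019). Of 15 genes for high mobility group proteins and linker histones, Hmgn1, the nearest relative of Hmgn2 on the list, was in the table, with a log2 difference of -0.15 (standard error 0.11, edgeR adjusted p = 0.24). Lix1l, the paralog of Lix1, was not among the genes analysed.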

How the data were processed

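The authors sorted EmGFP-positive cells, amplified the cDNA, sequenced single reads of 50 bases and counted reads per gene with Strand NGS (version not given in the sources used here, genome build mm9 per the labels). They deposited estimated counts that are not normalized, log2 values that were scaled by sample and set relative to the median of the gene, and, from their own comparison, a p-value (at most 0.04997 over the table), fold changes and a direction, which were not used further. Because only genes with such a p-value were deposited, the fits below rest on genes chosen for their difference.

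Estimated counts were rounded and fitted with edgeR 4.0.16 (R 4.3.3; TMM, glmQLFit, glmQLFTest) over all 1767 genes, group being the only term. Standard errors came from the log2 difference and the F statistic. The authors' scaling factors were recovered from the deposited log2 values of 1247 genes whose counts all exceeded 50. Permutation tests used log2 of the normalized count plus 0.5. Within groups, no 2 samples agreed within sampling noise (chi-square per degree of freedom 21.4 to 170.2 over 25 pairs), and each was kept as a replicate. The sources used here tie no sample to a batch or sequencing lane. In simulated counts of 1767 genes, edgeR found 128 of 200 genes changed 2-fold, with 3 false calls, and DESeq2 1.42.0 found 146, with 14. Only those 200 genes were changed there, as many raised as lowered, unlike the deposited genes, all chosen for a difference. These counts therefore do not give the rate of false calls in the data. Alternatives were DESeq2, its size factors, the authors' scaling, a minimum of 200 for the highest count, other fold thresholds, the number series or astrocyte score as a covariate, and leaving out each sample. Genes named are the 5 genes, their 3 nearest genes each by group-centred r (1 of which is not reported here), NF-Y subunits, genes lower in both N2a lists, and genes of the fixed lists. The genes and lists were chosen with earlier results of these data known.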

Additional observations from a re-analysis of the deposited data

Results flagged for a closer look

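The Hmgn2 value of knockdown sample 6, a normalized count of 4673, was picked out because it lay far below the other 4 knockdown samples, its gap to the nearest of them being 0.935 of the range of the group (Dixon's critical value for 5 samples, 0.71). It was the only such sample among 12 groups of samples examined, 6 genes in 2 groups, and chance picks out about 1 in 20. Without this sample the log2 difference of Hmgn2 was -0.50, against -0.56 with it.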

How the results depend on the processing

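All 5 differences stayed below 0 under every alternative, but the genes were chosen for lower values in this contrast. With the astrocyte score as a covariate, the log2 differences of Cpe, Lix1 and Capn2 moved to -0.0199, -0.0414 and -0.17, each smaller in size than its standard error. Those of Hmgn2 and Lrrn3 moved to -0.32 and -0.26, by less than their within-group standard deviations of 0.34 and 0.36. None of the 5 genes was called in that fit. The number of genes called lower, 461 in the reported fit, was 832 with the authors' scaling, 294 with a minimum of 200 counts (fewer genes tested), 214 with the astrocyte score and 271 with a fold threshold of 1.5. The number called higher, 719, was 471 with that minimum and 390 with the score. With the score, 0 astrocyte markers were called lower, by its construction. At the 1.5 threshold 4 vascular markers were called lower. Of the calpain genes 1 was called higher with the minimum and 1 with the score. Of the 30 genes lower in both N2a lists, 16 were called lower in the reported fit, 27 with the authors' scaling, 8 with the score and 5 at the 1.5 threshold. Where not stated, the cause was not tested. At that threshold Cpe and Lix1, 2 of the 5 genes, were still called.

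Among the controls, 3 of 15 relations passed an adjusted p of 0.05, under the authors' scaling and a pseudocount of 5 as well. With each control left out, r ranged from -0.20 to 0.85 for Lix1 and Lrrn3, from -0.27 to 0.93 for Hmgn2 and Capn2, from -0.26 to 0.79 for Lrrn3 and Capn2 and from -0.00523 to 0.87 for Lrrn3 and the astrocyte score, the lowest values being those without control 3. It ranged from 0.14 to 0.97 for Hmgn2 and the score, from 0.25 to 0.96 for Lix1 and Hmgn2 and from 0.32 to 0.88 for Cpe and Hmgn2, the highest being those without control 21, and from 0.03 to 0.93 for Cpe and Lrrn3. Per kilobase of coding length, the log2 ratio of Cpe to Hmgn2 was -0.31 in controls and -0.71 in knockdown samples, that of Hmgn2 to Capn2 5.13 and 5.07, that of Capn2 to Lix1 -0.44 and 0.0440, and that of Lix1 to Lrrn3 2.69 and 2.25. In a window of 300 bases, 2 promoters held CCAAT. No paired analysis was possible because the groups share no sample number and the labels pair no samples. The counts of the listed genes do not give the depth of the libraries.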
